A study of Mus musculus with 6 samples.

Results

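Lcn2, Serpina3n, A2m, Cfi and C2 encode secreted proteins of the acute phase, of protease inhibition and of the complement system, and their transcripts were followed in the mouse uterus with and without Stat3. All probe sets annotated to one of the 5 genes were taken from the deposited table, which gave 1 probe set for each gene, 5 of 1382 in all. The table names 987 genes. RNA came from whole uteri of female mice at 3.5 days post coitum, shortly before embryos implant, and was hybridised to Affymetrix arrays. One group carried the floxed, intact alleles of Stat3 (Stat3 f/f, 3 arrays) and the other the deleted alleles (Stat3 d/d, 3 arrays). No other allele, and no treatment, is named for either group. Which Cre driver made the deletion, in which cells, the age of the mice and whether each array came from its own animal are not stated in the labels. The p-values therefore measure the spread among these arrays only, and that spread may be technical.

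Interleukin-6 family cytokines, among them leukaemia inhibitory factor in the uterus before implantation, signal through a shared receptor chain and JAK kinases to phosphorylate STAT3, which then binds DNA and switches on target genes. In the liver this route drives the acute phase, in which secreted antimicrobial proteins, protease inhibitors and complement proteins rise together, often with help from C/EBP factors. In the uterus, such secreted products come largely from the epithelium of the lumen and glands and from immune cells. Lcn2 encodes lipocalin 2, which binds the iron carriers of bacteria. Serpina3n encodes a serine protease inhibitor that acts on leukocyte proteases, and A2m encodes alpha-2-macroglobulin, which traps proteases of several classes in a molecular cage. Cfi encodes complement factor I, the protease that cuts C3b and C4b and so stops complement amplification, whereas C2 encodes a protease precursor that forms part of the C3-cleaving enzyme of the classical and lectin pathways.

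The promoters of the members that fell are of interest because STAT3 and C/EBP factors act through short DNA motifs. The RefSeq promoter table, of build GRCm38.p6, held 2 of the 5 genes. For each, the bases upstream of the first annotated base of the gene are given 5′ to 3′ on the strand of the gene, and capitals mark matches to any of the 3 motifs searched on both strands. The Lcn2 stretch is chr2:32387740-32387989 on the minus strand, and the Serpina3n stretch is chr12:104406458-104406645 on the plus strand. The Serpina3n start site of that table lies inside the annotated gene, and the 62 bases just before it, which belong to the gene, were neither printed nor searched.
Lcn2: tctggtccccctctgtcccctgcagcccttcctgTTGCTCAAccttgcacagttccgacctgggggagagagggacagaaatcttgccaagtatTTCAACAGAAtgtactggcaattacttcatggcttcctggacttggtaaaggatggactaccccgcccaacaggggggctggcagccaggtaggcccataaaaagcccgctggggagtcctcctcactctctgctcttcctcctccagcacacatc
Serpina3n: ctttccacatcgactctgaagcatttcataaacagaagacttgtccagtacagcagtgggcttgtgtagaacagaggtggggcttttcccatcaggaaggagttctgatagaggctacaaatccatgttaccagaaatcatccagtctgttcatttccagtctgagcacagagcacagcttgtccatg

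The STAT core motif TTCNNNGAA was not among the 250 bases of Lcn2 or the 188 bases of Serpina3n. A motif with a spacer 1 base longer, TTCNNNNGAA, is a different motif, and whether STAT3 uses it was not examined. It occurred 1 time upstream of Lcn2, as TTCAACAGAA, from 156 to 147 bases before the start site. A C/EBP motif, TTGCNNAA, also occurred 1 time there, as TTGCTCAA, from 216 to 209 bases before the start site, and the matches do not overlap. Neither of the latter motifs was in the Serpina3n stretch. Among all 32851 RefSeq promoter windows, 7.02% held TTCNNNGAA in the same 250 bases, 5.85% held TTCNNNNGAA and 9.56% held TTGCNNAA. In windows of 188 bases the shares were 5.50%, 4.49% and 7.74%. These matches describe the letters of the windows and say nothing of binding.

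The table had been selected on the comparison of the groups. Every one of its 1382 probe sets differed at least 1.5-fold between group means, and 0 had groups that overlap. Other probe sets of the array were not analysed here, and nothing is said of genes that the table lacks. All probe sets of the table (100%) passed an adjusted p of 0.05 in limma, 32.6% of them lower and 67.4% higher in Stat3 d/d. The calls of the 5 genes are therefore read as descriptions: 4 were lower and 1, C2, was higher. An exact permutation test of any one gene, 3 arrays against 3, cannot go below p = 0.1 (two-sided). Each of the 5 reached that limit, as every probe set of the table does, since none has groups that overlap. The test therefore says nothing particular of these 5. Stat3 itself read 262, 356 and 243 in Stat3 f/f replicates 1, 2 and 4 and 121, 101 and 131 in Stat3 d/d replicates 1, 2 and 3 on its brighter probe set, or 41.0% of the Stat3 f/f mean in Stat3 d/d. The position of its probe sets relative to the deletion was not examined. The tissue label could be checked only in part, since the selected table held 1 of 12 stromal and muscle markers. It also held 1 of 8 oviduct and ovary markers, the oviductal glycoprotein Ovgp1, which read 31.3, 21.8 and 7.42 in Stat3 f/f replicates 1, 2 and 4 but 344, 494 and 240 in Stat3 d/d replicates 1, 2 and 3. Going by its suffix, that probe set can also read related transcripts. Whether oviduct content played a part in the values of the 5 genes was not tested. In whole-uterus RNA fewer cells of a type and less RNA per cell cannot be told apart.

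Lcn2, the siderophore-binding lipocalin, was much lower in Stat3 d/d uteri. Its intensity was 181, 98.8 and 212 in Stat3 f/f replicates 1, 2 and 4, and 21.1, 12.2 and 12.1 in Stat3 d/d replicates 1, 2 and 3. Every Stat3 f/f array lay far above every Stat3 d/d array, and the lowest Stat3 f/f array was still 4.67-fold above the highest Stat3 d/d array. The means were 164 ± 58.7 and 15.2 ± 5.18 (SD, n = 3 arrays each), so that Stat3 d/d held 9.23% of the Stat3 f/f level. On the scale of log2(intensity + 1), the difference Stat3 d/d minus Stat3 f/f was -3.33 (SE 0.30, 95% interval -3.99 to -2.66, adjusted p = 1.08e-05 in limma). On this scale, by the brightest probe set of each gene, Lcn2 had the third-deepest fall among the 987 genes. Without the added 1, Cfi fell more than Lcn2, with differences of -3.45 and -3.42. Within Stat3 d/d, Lcn2 in replicate 1 stood above the other 2 arrays. The summed intensity of the macrophage and dendritic cell markers was also highest in that array, at 1540 against 880 and 720. So was that of the T and natural killer cell markers, at 867 against 702 and 549. In Stat3 f/f replicates 1, 2 and 4 the macrophage and dendritic cell sum was 422, 338 and 279, lowest where Lcn2 was highest. The part of these cells in the Lcn2 level was not tested. Lcn2 is a known product of epithelium and stood on the list of luminal epithelium markers, of which 3 others were in the table. Those 3, the calcium-binding Calb1 and the claudins Cldn3 and Cldn4, were higher in Stat3 d/d, with sums of 1176 to 1473 over the Stat3 f/f arrays and 3300 to 3643 over the Stat3 d/d arrays. Calb1 kept its call under median centring and quantile normalization, and the claudins did not. Neutrophils also make Lcn2, and since 0 of 13 neutrophil markers were in the table, neutrophils could not be assessed.

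Cfi, the complement inactivator, fell as deeply. Intensities of 73.0, 64.9 and 159 in the Stat3 f/f arrays (replicates 1, 2 and 4) stood against 7.16, 8.38 and 9.54 in Stat3 d/d (replicates 1, 2 and 3). Replicate 4 was the high array in Stat3 f/f, and the nearest arrays of the groups were 6.81-fold apart, the widest gap of the 5 genes. The mean dropped from 98.9 ± 52.0 to 8.36 ± 1.19 (SD, n = 3), to 8.45% of the Stat3 f/f level, with a log2 difference of -3.31 (SE 0.30, 95% interval -3.97 to -2.64, adjusted p = 1.08e-05 in limma). Cfi is also a gene of the uterine glands. Besides Cfi, 4 of the other 11 gland markers were in the table. Aldh1a1, a retinaldehyde dehydrogenase, Lgr5, a stem cell receptor, and Sox9, a transcription factor, were lower, and Ttr, the thyroid hormone carrier, was higher. The summed intensity of those 4 was 165, 164 and 517 in Stat3 f/f replicates 1, 2 and 4 and 94.7 to 126 in Stat3 d/d, so that it was high in the same array as Cfi. Aldh1a1 carried most of that sum, with 432 in replicate 4 against 114 and 106, and Lgr5 and Sox9 were also highest there, whereas Ttr was lowest there, at 13.3 against 22.9 and 28.2. The part of gland content in the Cfi values was not tested.

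Serpina3n fell too, and of the 5 genes it had the most uneven levels among Stat3 f/f arrays. It read 90.3 and 116 in replicates 1 and 2 but 18.7 in replicate 4, against 10.0, 9.11 and 9.70 in Stat3 d/d replicates 1, 2 and 3. A single Stat3 f/f array was thus close to the Stat3 d/d level, at 1.87-fold above the highest of them, while the Stat3 d/d arrays lay within 1.10-fold of each other. The means were 74.9 ± 50.3 and 9.61 ± 0.46 (SD, n = 3), or 12.8% of the Stat3 f/f level in Stat3 d/d. The log2 difference was -2.49 (SE 0.52, 95% interval -3.64 to -1.33, adjusted p = 0.00169 in limma). Without Stat3 f/f replicate 4, the array nearest to Stat3 d/d, it was -3.28 (adjusted p = 2.40e-07 in limma). Omitting another Stat3 f/f array made it smaller: -2.18 without replicate 1 (adjusted p = 0.00918 in limma) and -2.00 without replicate 2 (adjusted p = 0.0102 in limma). Serpina3n belongs to a cluster of closely related serpin genes, and how far its probe set also reads relatives was not examined.

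A2m, the broad protease trap, fell by less. Its intensity was 444, 325 and 881 in Stat3 f/f replicates 1, 2 and 4 and 184, 116 and 184 in Stat3 d/d replicates 1, 2 and 3. The groups did not overlap, as for every probe set of the selected table. The nearest arrays were 1.77-fold apart, and replicate 4 stood above the other Stat3 f/f arrays. From 550.0 ± 293 the mean went to 161 ± 39.5 (SD, n = 3), or 29.3%. The log2 difference was -1.67 (SE 0.33, 95% interval -2.40 to -0.93, adjusted p = 0.00134 in limma), and -1.26 without Stat3 f/f replicate 4.

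C2, which feeds complement activation rather than restraining it, moved the other way. It read 15.1, 18.3 and 19.0 in the Stat3 f/f arrays (replicates 1, 2 and 4) and 32.4, 31.5 and 26.3 in Stat3 d/d (replicates 1, 2 and 3). All 3 Stat3 d/d arrays were above all Stat3 f/f arrays, as for every higher probe set of the selected table. The nearest arrays were 1.38-fold apart, and both groups were tight. The means were 17.5 ± 2.10 and 30.1 ± 3.28 (SD, n = 3), a 1.72-fold higher level, and the log2 difference was 0.75 (SE 0.17, 95% interval 0.37 to 1.14, adjusted p = 0.00266 in limma). That is close to the median change of all probe sets of the table, 0.70. After each array was centred on its median the C2 difference was 0.28 (adjusted p = 0.186 in limma), and after quantile normalization 0.32 (adjusted p = 0.147), so its call was lost. Those scalings moved the median change of the table to 0.24 and 0.25, and they deepened the falls of the other 4 genes. Both were computed within the selected table, where 67.4% of probe sets were higher in Stat3 d/d. They therefore shrink rises and deepen falls by construction, and cannot decide whether C2 rose. The C2 probe set carries the suffix that Affymetrix gives to sets sharing probes with other transcripts, and which of them it reads was not examined.

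**Figure D1:**
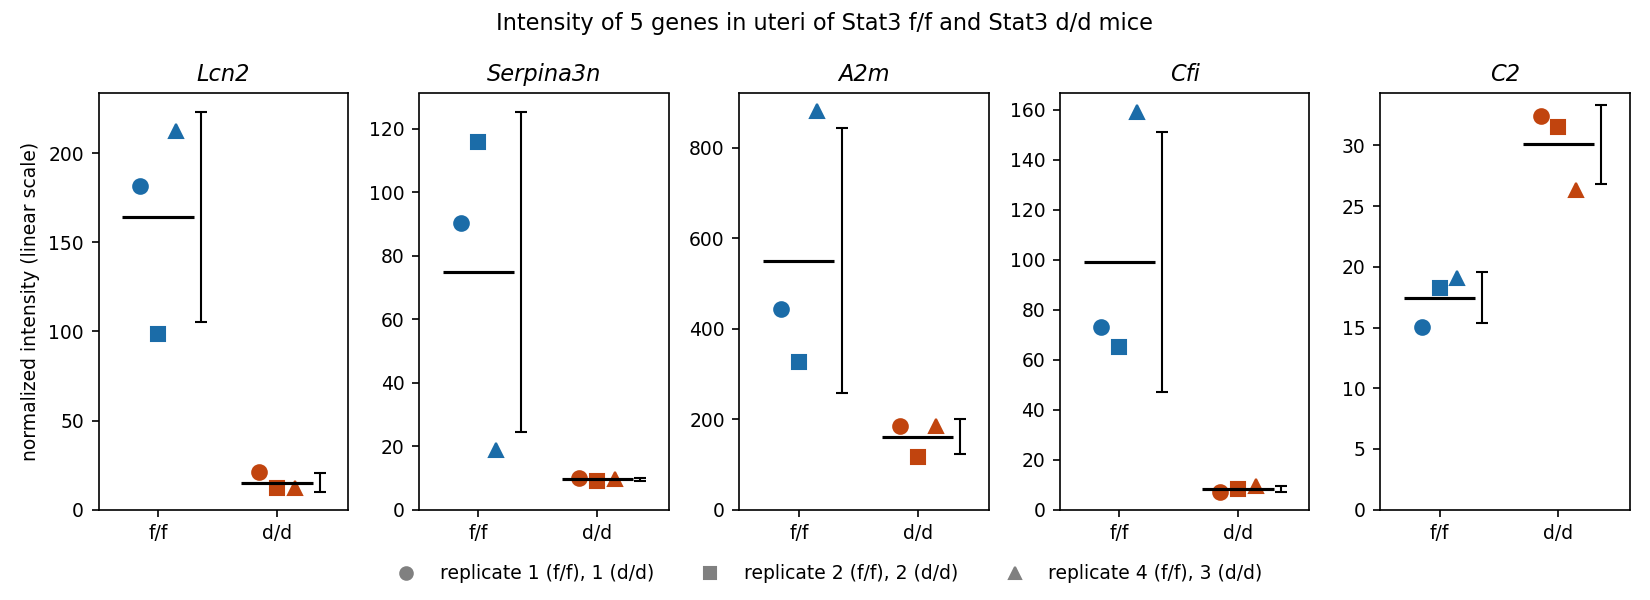
Normalized intensity (vertical axis, linear, starting at 0) of each of the 5 genes in Stat3 f/f (blue) and Stat3 d/d (orange) uteri. Each point is 1 array, its shape gives the replicate number, lines are means and bars are 1 SD (n = 3). Groups do not overlap for any of the 5 genes, as for all 1382 probe sets of the selected table. Stat3 f/f replicate 4 (triangle) is high for A2m and Cfi and low for Serpina3n.

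C2 is also known as an interferon-induced gene and a product of macrophages, and both of those groups were higher in Stat3 d/d. In the whole table all probe sets were called and 67.4% were higher, which applies to the counts of both lists. Of 40 interferon-induced genes, 25 were in the table and all 25 were higher by the brightest probe set of each gene, with a median log2 change of 1.71. The GTPases Iigp1, Gbp6 and Irgm2 and the MHC class I transactivator Nlrc5 had the smallest adjusted p-values. Their intensity in Stat3 d/d was 10.7, 11.6, 6.66 and 8.50 times that in Stat3 f/f. Summed over the 25 genes, intensity ranged from 1626 to 1771 among Stat3 f/f arrays and from 5784 to 6649 among Stat3 d/d arrays. For macrophages and dendritic cells, 6 of 16 markers were in the table, all higher, with sums of 279 to 422 and 720 to 1540. Under median centring and under quantile normalization 20 of the 25 interferon-induced genes kept their calls, without Irf8, Irf9, Ifit2, Ddx58 and Oas2, and 4 of the 6 macrophage markers, without Adgre1 and Fcgr1. The C2 change of 0.75 is below the medians of both lists, 1.71 and 1.22, and the part of interferon or of macrophage number in its level was not tested.

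The 4 genes that fell were not high in the same Stat3 f/f arrays. Replicate 4 held the highest value of Lcn2, A2m, Cfi and also C2, but the lowest of Serpina3n. Relative to the Stat3 f/f mean on the log2 scale, replicate 4 deviated by 0.81 for A2m, 0.80 for Cfi and 0.44 for Lcn2, and by -1.59 for Serpina3n. Replicate 2 was lowest for Lcn2 (-0.66), A2m (-0.63) and Cfi (-0.48) and highest for Serpina3n (0.97). The array with high A2m and Cfi was not the one with high Stat3: Stat3 was 243 in replicate 4, the lowest of the 3, and 356 in replicate 2. With 3 arrays a relation between these levels cannot be tested.

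The spread among Stat3 f/f arrays was wide for the 4 genes that fell. Their SD on the log2 scale was 0.58 for Lcn2, 0.69 for Cfi, 0.73 for A2m and 1.39 for Serpina3n, where the median was 0.24 over the 451 lower probe sets. With 3 arrays, leaving out the most distant one always lowers the SD. The values that follow therefore do not show that a spread rested on a single array. Without replicate 4 the SD was 0.25 for Serpina3n, 0.12 for Cfi and 0.32 for A2m, and without replicate 2 it was 0.16 for Lcn2. C2 had an SD of 0.17, and 0.04 without replicate 1. In Stat3 d/d the SD was 0.43 for Lcn2, 0.38 for A2m, 0.18 for Cfi, 0.16 for C2 and 0.06 for Serpina3n. A probe set with a wide spread could enter this table only with a large change, because groups do not overlap in it, so the fair comparison is with other deep falls. The 31 other probe sets that fell at least as much as A2m had a median SD of 0.28 among Stat3 f/f arrays and 0.18 among Stat3 d/d arrays, and 8 of the 31 had an SD over 0.5 among Stat3 f/f arrays. No test of spread was made with 3 arrays per group.

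**Figure D2:**
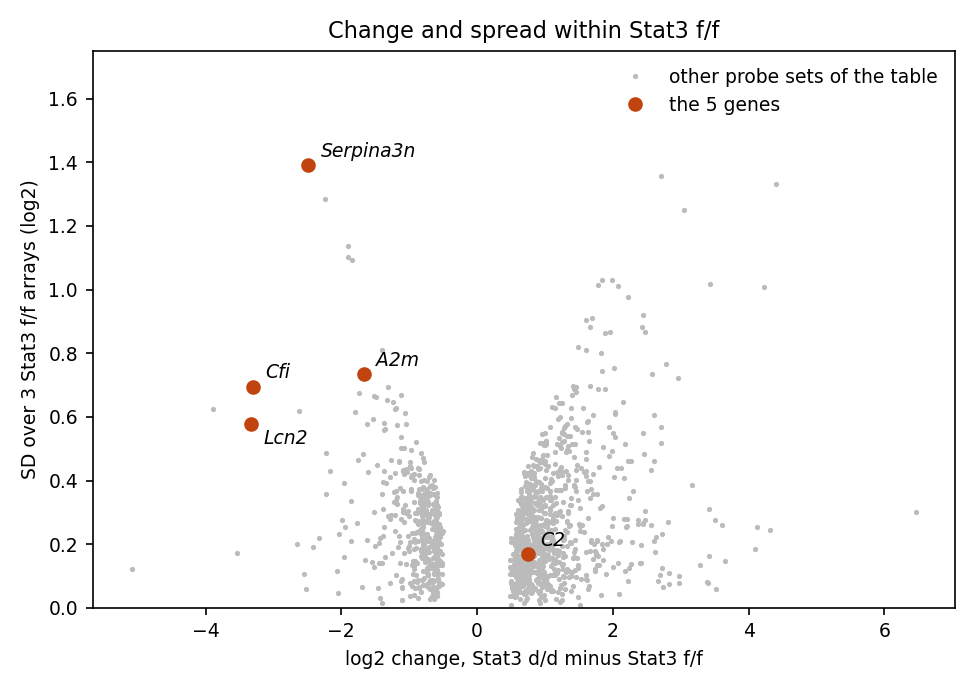
SD over the 3 Stat3 f/f arrays on the log2(intensity + 1) scale (vertical axis) against the log2 change, Stat3 d/d minus Stat3 f/f (horizontal axis), for each probe set of the table (grey) and the 5 genes (orange). Serpina3n lies at an SD of 1.39, and the empty middle shows the selection of the table on this comparison.

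Genes whose values over the 6 arrays were most like those of each member were sought among 949 other named genes. These correlations are descriptions, with no p, because the 6 arrays fall into the 2 groups on which the table was selected. Serpina3n was most like Saa1, the acute-phase apolipoprotein serum amyloid A (r = 0.998), followed by the proteoglycan Fmod (r = 0.993) and the protease inhibitor Serpina1c (r = 0.990). Saa1 read 9.70, 9.98 and 4.81 in Stat3 f/f replicates 1, 2 and 4 and 3.67 to 3.76 in Stat3 d/d, with the same low replicate 4. Its probe set can also read a related Saa gene, going by its suffix. Lcn2 was most like Ankrd11, the cytokine Il18 and Camta1 (r from 0.995 to 0.996). A2m was most like Parm1, the hormone Stc2 and the deiodinase Dio2 (r from 0.987 to 0.996), and Cfi was most like Chn2, the protease Tmprss11a and Riok3 (r from 0.991 to 0.994). For C2 the closest were the peptidase Cpq, the complement receptor chain Itgax and Oit1 (r from 0.976 to 0.987).

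After each group mean was subtracted, only the differences between arrays of a group were left. Serpina3n was then most like Hopx (r = 0.995), Saa1 (r = 0.995) and the sodium pump regulator Fxyd4 (r = 0.991). Hopx and Fxyd4 were higher in Stat3 d/d, opposite to Serpina3n, but shared its low replicate 4, with Fxyd4 at 961, 978 and 286 in Stat3 f/f replicates 1, 2 and 4. Cfi was closest to the Wnt receptor Fzd6 (r = 0.994), Smim38 (r = 0.993) and the plasminogen activator Plat (r = 0.984). Plat read 445, 378 and 888 in the same 3 arrays, high in replicate 4 as Cfi was. A2m was closest to Parm1, Styk1 and Ndufc2 (r from 0.971 to 0.984), Lcn2 to Adcy7, the activin subunit Inhbb and the ceramidase Asah1 (r from 0.968 to 0.972), and C2 to Erdr1, Fahd2a and Acap1 (r from 0.964 to 0.979). Inhbb read 207, 128 and 292 in Stat3 f/f replicates 1, 2 and 4, in the order of Lcn2. The highest of 949 values is large by construction, and these names say nothing of shared control.

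The other acute-phase genes in the table were few, and those that were lower fell by smaller amounts. Every probe set of the table was called, 32.6% lower and 67.4% higher, so counts on such short lists are descriptions only. The table held 7 of 33 genes of that list, and besides Lcn2, Serpina3n and A2m, 3 of the other 4 were lower and 1 was higher, with a median log2 change of -0.75. Lbp, which carries bacterial lipopolysaccharide, read 240, 303 and 423 in Stat3 f/f replicates 1, 2 and 4 and 218, 138 and 135 in Stat3 d/d, a difference of -0.97 (SE 0.25) on its brighter probe set and -1.19 on the other. In Stat3 d/d, Lbp was highest in replicate 1, as Lcn2 was. Cp, the copper carrier ceruloplasmin, differed by -0.60 (SE 0.20) and -0.79 on its 2 probe sets. The brighter one lost its call without Stat3 d/d replicate 3 (-0.49, adjusted p = 0.0526 in limma), which left 2 of the other 4 acute-phase genes lower. Saa1 differed by -0.90 (SE 0.24), with Stat3 d/d values near the lowest of the table. Ttr was higher on all 3 of its probe sets, by 1.20, 1.98 and 2.23. The list does not separate proteins that rise in the acute phase from those that fall in it, so the direction of Ttr is not read as an exception.

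Among complement genes the table held 1 of 28 components, C2, and 4 of 22 regulators and receptors. Clu, clusterin, which blocks the terminal complement complex, was lower on all 4 probe sets, by 0.74 to 0.83 on the log2 scale. C3ar1, the receptor of the fragment C3a, and Itgax, a chain of complement receptor 4, were higher by 1.22 (SE 0.29) and 1.52 (SE 0.18). The complement inhibitors Cfi and Clu were thus lower, and C2 and both receptor genes, which are carried by leukocytes, were higher. These are few genes, in a table where 67.4% of probe sets were higher. The C2 change, 0.75, was close to the median of the table, 0.70. Its call was lost with 45000 assumed tests and under both scalings, which cannot decide whether C2 rose. Itgax is also one of the macrophage and dendritic cell markers counted above.

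Of 82 protease inhibitor genes, 7 were in the table, and besides Serpina3n and A2m 3 were lower and 2 higher. Spink12, a Kazal-type inhibitor, read 34.6, 9.74 and 60.2 in Stat3 f/f replicates 1, 2 and 4 and 5.15, 4.28 and 5.94 in Stat3 d/d. Its Stat3 f/f arrays had the same order as those of Lcn2, with a still wider SD of 1.28, and its difference was -2.23 (SE 0.49). Pi16, a peptidase inhibitor of stromal cells, was lower by 1.19 (SE 0.16) with little spread among arrays. Serpina1c, an alpha-1-antitrypsin gene of a family with near-identical copies, was lower by 0.65 (SE 0.19), with Stat3 d/d values near the lowest of the table. Itih5, a hyaluronan-binding inhibitor family member, and Serpinb9, the inhibitor of granzyme B, differed by 1.01 (SE 0.25) and 0.62 (SE 0.18), and both lost their calls under median centring and under quantile normalization.

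Of 47 STAT3 and interleukin-6 family genes, 8 were in the table. Besides Lcn2, Serpina3n and A2m, 4 were lower and 1 higher, with a median of -0.72. Here too the share over all probe sets was 32.6% lower and 67.4% higher. Stat3 differed by -1.27 (SE 0.20) on its brighter probe set, Osmr, which encodes the oncostatin M receptor, by -0.79 (SE 0.21) and Cebpb, a transcription factor of the acute phase, by -0.72 (SE 0.18). Ccnd1, cyclin D1, differed by -0.59 (SE 0.16) on the brighter probe set and -2.04 on the other. Jak2 was higher by 0.68 (SE 0.17), a call lost under both scalings. Lcn2, Cfi, Serpina3n and A2m each had a larger fall than Stat3 itself, by point estimate, but without Stat3 f/f replicate 4 the order of A2m (-1.26) and Stat3 (-1.38) turned. The differences between genes were not tested.

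**Figure D3:**
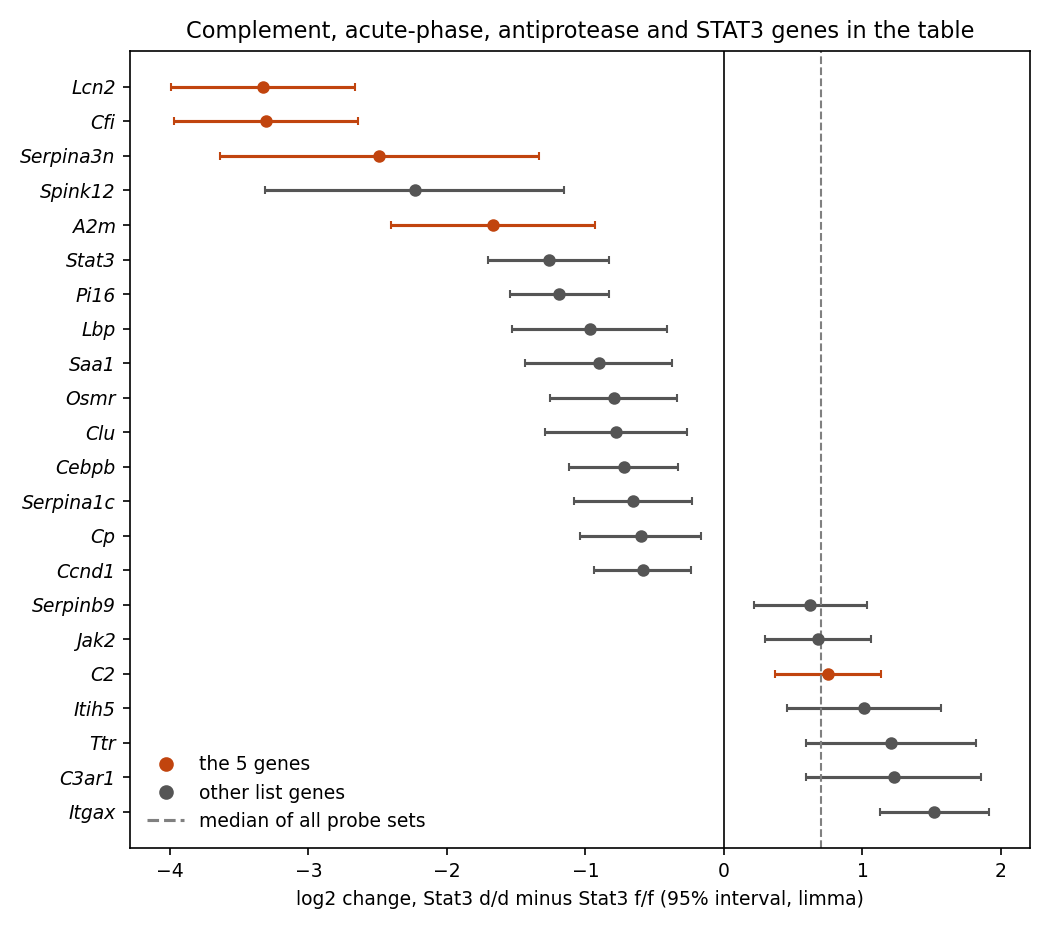
Log2 change, Stat3 d/d minus Stat3 f/f, with its 95% interval from limma (horizontal axis) for each gene of the complement, acute-phase, protease inhibitor and STAT3 lists in the table, by its brightest probe set. The 5 genes are orange, and the dashed line is the median of all probe sets, 0.70. Lcn2 and Cfi have the deepest falls shown, and C2 lies next to the dashed line.

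Over these lists, 15 genes were lower in Stat3 d/d, and the Stat3 f/f array with the highest value differed among them. It was replicate 4 for 8 genes, replicate 2 for 5 and replicate 1 for 2. The lowest value lay in replicate 4 for 5 genes. Among all 451 lower probe sets, replicate 4 was highest for 49.4% and lowest for 23.5%, so the split seen in the 5 genes was also present in the table at large.

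**Figure D4:**
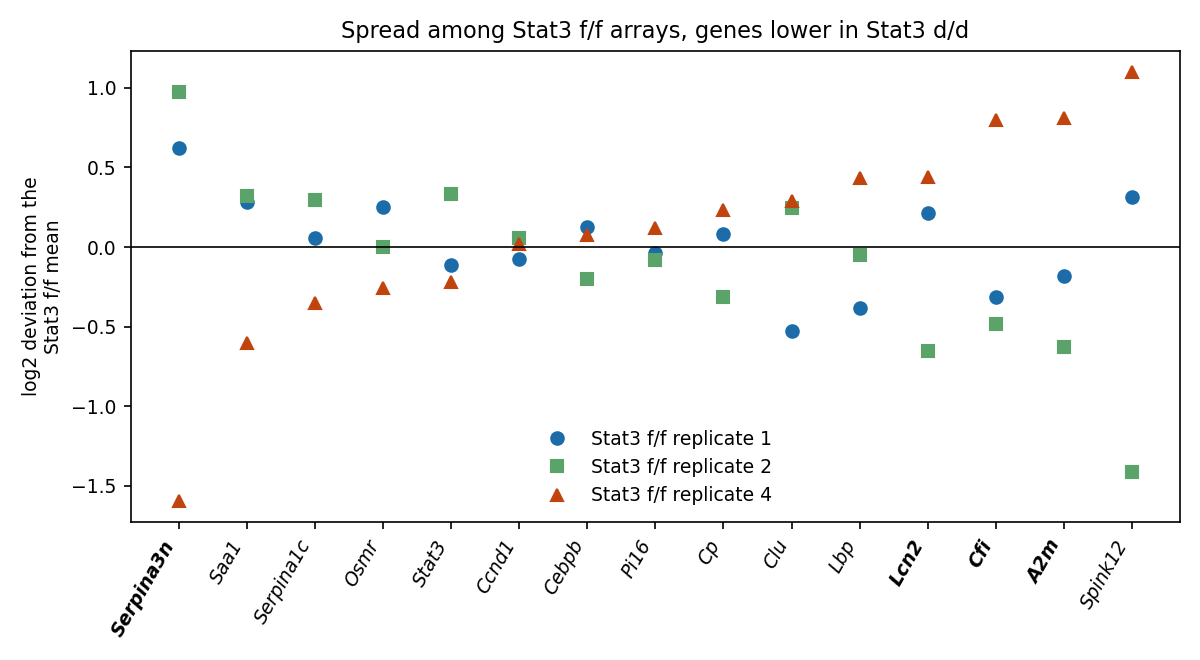
Deviation of each Stat3 f/f array from the Stat3 f/f mean (vertical axis, log2) for the 15 list genes that were lower in Stat3 d/d, sorted by replicate 4 (horizontal axis; bold names are Lcn2, Cfi, A2m and Serpina3n). Replicate 4 ranges from -1.59 for Serpina3n to 1.10 for Spink12.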

How the data were processed

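Uterine RNA from 3 Stat3 f/f and 3 Stat3 d/d samples was biotin-labelled and measured on Affymetrix arrays, per the labels' protocols. Groups come from the source names and replicate numbers from the titles. The deposited values are probe set intensities from RMA, per the submitters' processing notes; they are linear although RMA gives log2 values, and the conversion is unrecorded. The build and annotation behind them are not stated in the labels.

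Gene names came from the platform's annotation; all 5 genes matched the RefSeq gene table by identifier. Values were taken as log2(intensity + 1), which understates changes of dim genes, and compared with limma 3.58.1 (lmFit, eBayes; R 4.3.3; no covariate) over all 1382 probe sets with Benjamini-Hochberg adjustment and a threshold of 0.05. The brightest probe set stood for a gene, except that all were examined for the 5 genes. No detection calls were used. The fit was tested on simulated data in which most features had no change, unlike the selected table. That test therefore does not cover the p-values given here. Motifs were counted in RefSeq promoter windows, and figures were drawn with matplotlib 3.10.9.

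The 5 genes, the lists and the tests were chosen with earlier results of these data known. Named genes were the 5 genes, Stat3, every gene of the complement, acute-phase, protease inhibitor and STAT3 lists in the table, for each of the 5 genes the 3 genes with the highest Pearson r before and after subtracting group means (unnamed predicted genes left out), the 4 interferon genes with the smallest adjusted p, and markers of lists that moved with one of the 5. Alternatives were quantile normalization, median centring, no pseudocount, a dim-probe-set filter, array weights, other variance models, omission of single arrays, a replicate block, 45000 assumed tests and averaging the probe sets of each gene.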

Additional observations from a re-analysis of the deposited data

How the results depend on the processing

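Lcn2, Cfi and A2m kept their direction and their call under all 15 alternatives, with log2 changes from -3.81 to -2.98, from -3.77 to -2.91 and from -2.14 to -1.26. Adjusted p-values were larger in t-tests without variance moderation. They were 0.00771 for Lcn2 and Cfi, 0.0333 for A2m, 0.0410 for Serpina3n and 0.0137 for C2, all still called. Leaving out 1 array gave -3.66 to -3.11 for Lcn2, -3.55 to -2.91 for Cfi, -1.98 to -1.26 for A2m, -3.28 to -2.00 for Serpina3n and 0.66 to 0.84 for C2, with no call lost in limma. With 45000 assumed tests, about the size of such an array, Serpina3n (-2.49, adjusted p = 0.0550) and C2 (0.75, adjusted p = 0.0865) lost their calls, which left 3 genes lower and 0 higher. C2 also lost its call after quantile normalization (0.32) and median centring (0.28), so that 0 of the 5 genes were higher. Under both scalings 0 complement components, 0 protease inhibitors and 0 STAT3 list genes were higher past the threshold. Both scalings were computed within the selected table, where 67.4% of probe sets were higher. Rises lost and falls kept under them are thus partly built in, for every gene for which they are given. Averaging a gene's probe sets made 1 interferon gene lower.

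The groups share replicate numbers 1 and 2, and deviations of same-numbered arrays correlated at 0.09 and 0.03 over all probe sets, so the numbers give no evidence of pairing. With the replicate block, which in effect uses replicates 1 and 2 alone, the changes were -2.98 for Lcn2, -2.997 for Cfi, -3.29 for Serpina3n, -1.37 for A2m and 0.90 for C2, all called, and 1 protease inhibitor gene was higher in place of 2 (without Serpinb9). Cp lost its call with the block (-0.38, adjusted p = 0.126 in limma), and A2m then fell less than Stat3 (-1.46). The number of arrays and the lack of detection calls limit what can be said of levels near background.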
